A study of Mus musculus with 14 samples.

Results

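This is the response of wild-type bone marrow-derived macrophages to tumour material, taken as the arrays titled TFEB-wt ECM against those titled TFEB-wt Control. It covers 8 of the 14 one-colour microarrays of the series, which hold 6 of its 11 replicates. Both groups came from female C57BL/6 mice aged 8 weeks that carried the LysM-Double-Cre construct without the TFEB transgene, so Cre recombinase under the myeloid LysM promoter was present in control and treated cells alike. Marrow was differentiated with recombinant M-CSF for a week and replated, and the cells then spent 24 h in DMEM alone (control, 3 replicates on 4 arrays) or in DMEM with EO771 tumor-conditioned medium and tumour lysate (tumour material, 3 replicates on 4 arrays). The series also holds macrophages with the TFEB transgene, which enter only in 1 alternative fit. EO771 is a mouse mammary tumour cell line of the same C57BL/6 background. Conditioned medium and lysate were always given together and cannot be told apart. Replicate 3 of each group was hybridised again on a second slide, and its 2 arrays count as 1 replicate. The labels call the replicates biological without saying whether they came from separate mice, and the p-values measure only the spread between the arrays of these replicates.

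Macrophages grown in M-CSF are long-lived phagocytes that clear dying cells, take up lipid and keep inflammatory programmes low. Products of damaged or malignant cells are sensed by pattern-recognition, cytokine, purine and lipid receptors, which act through NF-kB, JAK-STAT, interferon and oxygen-sensing pathways. These pathways are known to change many transcripts within a day, from secreted factors and surface receptors to enzymes of intermediary metabolism. In RNA from whole cultures, fewer cells of a type and less RNA per cell cannot be told apart.

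A level is the log2 of a probe's signal over the 75th percentile of its array. A difference is the fitted level with tumour material minus that in control medium, from a limma model with slide as a term. Its SE is that of the limma fit to the arrays, with replicate as a random block (within-replicate correlation 0.629). This SE can be smaller or larger than one taken from the 3 replicate values of each group. Ccl8 had an SE of 0.57, beside SDs over replicates of 1.35 in controls and 0.11 with tumour material. For Ahr the SE was 0.34, beside SDs of 0.24 and 0.02. The SD of a group and the SE of a difference are unlike measures, so these values show only the spread behind each SE. Spots called well above background made up 35.5% to 37.9% of an array, and 0 were saturated. Arrays of the control group correlated at 0.984 to 0.993, arrays with tumour material at 0.989 to 0.994, and arrays of different groups at 0.926 to 0.937.

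Tumour material changed a large share of the genes measured. Of 15303 genes tested, 4365 were higher with tumour material (28.5% of those tested) and 3268 were lower (21.4%), together 49.9% at an adjusted p under 0.05. Most changes were small: 1229 of the higher genes and 1064 of the lower ones differed at least 2-fold, 448 and 325 at least 4-fold, and 81 and 34 at least 16-fold. The replicates of the groups did not overlap for 9055 genes (59.2%). The median difference over all genes tested was 0.05. Genes that crossed the detection limit were numerous: 171 of the higher genes were not well above background on any control array, and 208 of the lower genes on no array with tumour material. Of the called genes, 4462 (58.5%) stayed called in the same direction in each of the 16 alternative fits that tested them, and so did every called gene named below unless said otherwise, since such genes were preferred for naming.

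**Figure D1:**
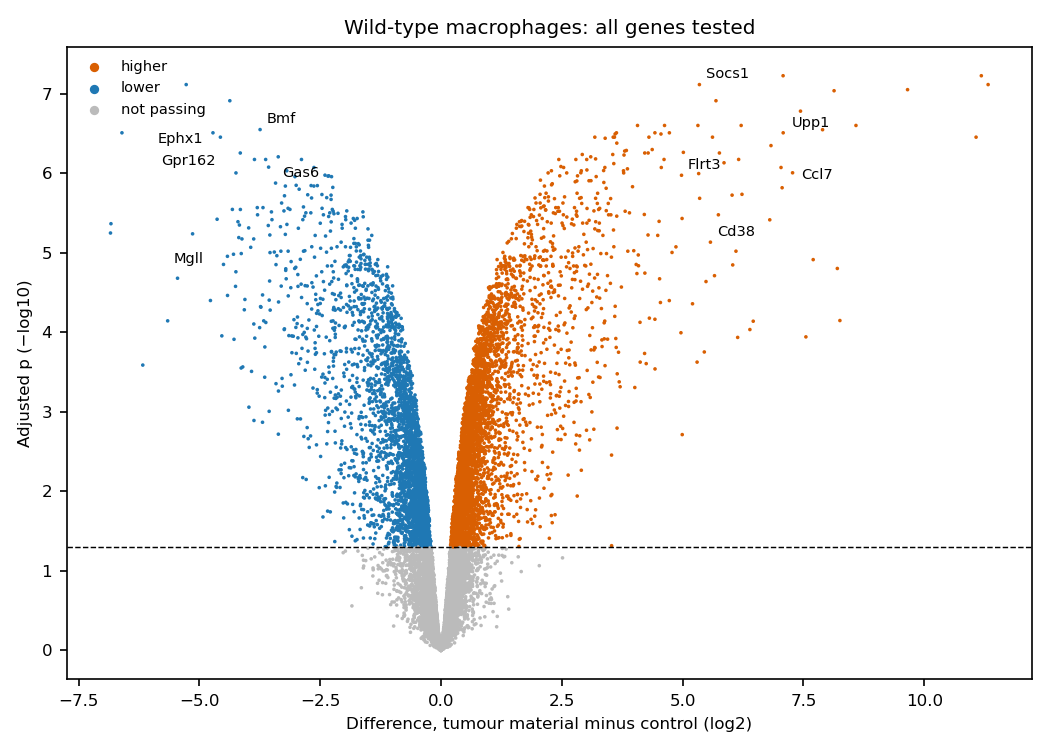
Difference in level between tumour material and control (x axis, log2) against the adjusted p of each of the 15303 genes tested (y axis, −log10), with higher genes in orange, lower genes in blue and genes not past the threshold in grey. The dashed line marks an adjusted p of 0.05, and labelled genes are described in the text, from Ccl7 and Upp1 among the large rises to Ephx1 and Mgll among the large falls.

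Uridine phosphorylase Upp1, which splits uridine into uracil and ribose 1-phosphate, was among the largest measured rises. Its level was −0.38, −0.94 and −0.23 in control replicates 1, 2 and 3, and 6.62, 6.51 and 6.62 with tumour material. All 3 treated replicates lay above all controls, and the difference was 7.08 (SE 0.17, limma adjusted p = 3.1e-07). A dimmer second probe of the gene gave 3.73. The largest rises and falls were picked among genes whose replicates did not overlap between the groups. Non-overlap is therefore no added support for the genes picked this way. Inhba, which encodes the subunit of activin A, stood at 0.34, −0.33 and −0.18 in control medium and at 5.72, 5.68 and 5.94 with tumour material, and rose by 5.86 (SE 0.18, adjusted p = 7.4e-07). The groups were fully separated. Cd38, an ectoenzyme that consumes NAD, was at 1.06, 0.26 and 1.48 in controls and 6.33, 6.82 and 6.5 in treated cells, without overlap, and rose by 5.58 (SE 0.29, adjusted p = 7.4e-06).

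Socs1, which blocks JAK kinases, stood at 1.37, 1.34 and 1.52 in control medium and 6.81, 6.70 and 6.78 with tumour material, a difference of 5.35 (SE 0.08, adjusted p = 7.7e-08). Its treated values lie within a narrow band far above the controls. Il1rn, the secreted antagonist of the IL-1 receptor, went from −0.68, −0.70 and −0.79 to 4.46, 4.54 and 4.73, again without overlap (difference 5.32, SE 0.11, adjusted p = 2.5e-07). Cish, a SOCS-family gene commonly induced through STAT5, rose by 4.52 (SE 0.29). The monocyte-attracting chemokines Ccl7 and Ccl8 rose by 7.28 (SE 0.24) and 6.39 (SE 0.57). Other large rises were the interferon-inducible genes Gbp4 (4.86), Apol9a (4.63, another probe 2.57), Apol9b (4.73) and Slfn1 (4.43). Apol9a and Apol9b are near-identical copies whose probes may each bind both transcripts. The adhesion protein Flrt3 rose by 4.98 (SE 0.16), with its 3 probes between 4.93 and 5.39, and the lymphocyte receptor Slamf6 by 4.56 (SE 0.14).

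All 4 tested theta-class glutathione transferases, which conjugate glutathione to small electrophiles, rose. Gstt1 stood at −1.31, −1.78 and −1.23 in control replicates and 3.88, 3.89 and 4.0 with tumour material, so that the treated replicates were all far higher (difference 5.35, SE 0.21, adjusted p = 2.1e-06). Gstt4 was not well above background on any control array and was at least 28.7-fold higher. Gstt2 rose by 2.12 (SE 0.10) and Gstt3 by 0.83 (SE 0.12). Other classes moved differently. In the mu class Gstm1, Gstm3 and Gstm4 fell by 1.67 (SE 0.10), 1.72 (SE 0.19) and 1.80 (SE 0.13), but a second probe of Gstm4 gave only −0.26. Gstm2 differed by 1.02, a rise that lost its call when the transgenic arrays shared the fit. Copies of the mu class are similar in sequence, and their probes may bind each other's transcripts. Of 51 tested genes of glutathione transferases, aldehyde and keto reductases, epoxide hydrolases and sulfotransferases, 13 were higher and 24 lower (median −0.25, against 0.05 over all genes).

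Where no control array measured a gene, the fold is a lower bound: the treated mean is set against the dimmest signal called well above background on each control array, or the probe's own signal if that was higher. By this measure the transcript U90926 was at least 797-fold higher with tumour material, with levels of 6.60, 6.67 and 7.03 in the 3 treated replicates. The schlafen gene Slfn4 was at least 219-fold higher and the neutrophil chemokines Cxcl1 and Cxcl2 at least 47.7-fold and 59.3-fold. Ch25h, which makes 25-hydroxycholesterol, was at least 53.3-fold higher, with treated levels of 2.85, 2.71 and 3.03. The IL-1 family ligands Il1a and Il1f6 (IL-36 alpha) were at least 58.8-fold and 29.4-fold higher. Urah, an enzyme of urate breakdown, was at least 46.9-fold higher, and the EGF-family ligand Nrg4 at least 27.7-fold. The interferon-induced Ifit1bl1 was at least 51.5-fold higher and the stefin Stfa3 at least 45.8-fold. Each of these genes was well above background on all 4 treated arrays and on none of the 4 control arrays. The detection filter and the definition of the bound require this pattern, so it is no added support.

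**Figure D2:**
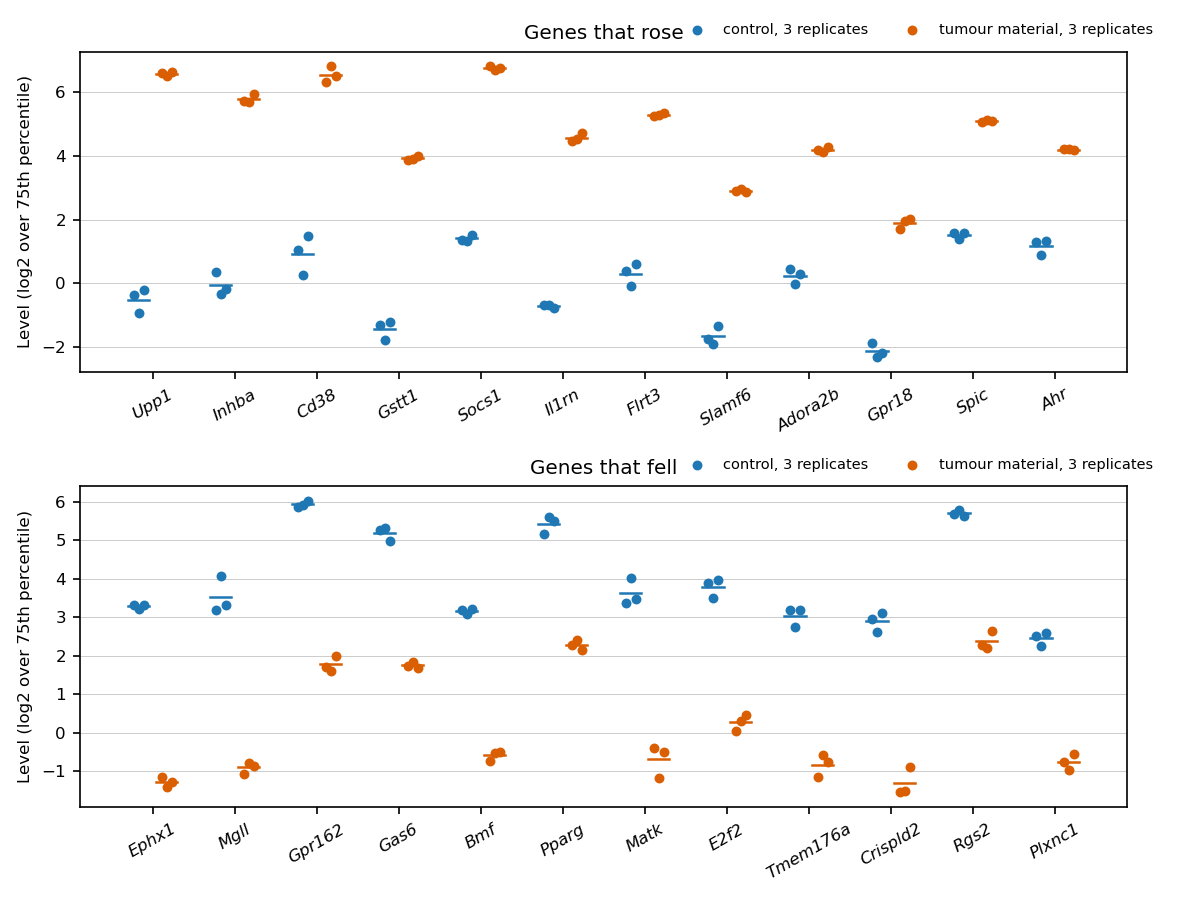
Level of 24 genes (y axis, log2 scale, relative to the 75th percentile of the array) in the 3 control replicates (blue) and the 3 replicates with tumour material (orange), where points are replicates and bars the group means. For the 12 genes in the upper panel every treated point lies above every control point, as for Upp1 and Inhba. For the 12 in the lower panel every treated point lies below. Non-overlap was a condition for picking the largest rises and falls.

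Among the falls, the microsomal epoxide hydrolase Ephx1 stood at 3.32, 3.20 and 3.32 in control replicates 1, 2 and 3 and at −1.15, −1.41 and −1.29 with tumour material, a difference of −4.56 (SE 0.11, adjusted p = 3.5e-07). The 2 groups lay far apart, but a second, dimmer probe of Ephx1 gave only −0.73. Mgll, the lipase that releases glycerol and free fatty acid from monoacylglycerol, fell from 3.20, 4.07 and 3.32 to −1.07, −0.79 and −0.86 (difference −4.42, SE 0.25, adjusted p = 1.1e-05). Its 3 probes fell by 4.07 to 4.44. The orphan receptor gene Gpr162 stood at 5.87, 5.92 and 6.02 and 1.72, 1.61 and 1.99, again with no overlap (difference −4.15, SE 0.11).

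Gas6, the bridging ligand that links apoptotic cells to the TAM receptor Mertk, fell from 5.26, 5.32 and 4.97 to 1.73, 1.85 and 1.68 (difference −3.42, SE 0.12, adjusted p = 1.3e-06). Mertk itself fell by 0.76 (SE 0.15). The lipid-sensing nuclear receptor Pparg went from 5.17, 5.61 and 5.49 to 2.28, 2.41 and 2.14, and fell by 3.16 (SE 0.13, adjusted p = 2.8e-06). The phosphatidate phosphatase Lpin1 fell by 3.65 (SE 0.43). For each of these genes all treated replicates were below all controls.

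Several regulators and membrane proteins fell as steeply. Bmf, a BH3-only protein that promotes apoptosis, fell from 3.18, 3.08 and 3.20 to −0.73, −0.53 and −0.52 (difference −3.74, SE 0.08, adjusted p = 2.8e-07). Matk, a kinase that restrains SRC-family kinases, fell by 4.29 (SE 0.24), and the cell cycle factor E2f2 by 3.51 (SE 0.15). The paired membrane genes Tmem176a and Tmem176b fell by 3.88 (SE 0.20) and 3.63 (SE 0.11), and the secreted protein Crispld2 by 4.20 (SE 0.19).

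Other genes were no longer measured with tumour material. Mamdc2 stood at 1.66, 2.45 and 1.69 in controls and was not well above background on any treated array. Mamdc2 and Pcp4l1 were at least 27-fold and 26.4-fold lower. The sterol 27-hydroxylase Cyp27a1 was at least 13.1-fold lower, the sialyltransferase St6gal1 at least 12.6-fold, the sulfotransferase Sult1a1 at least 11.7-fold and the acetyl-CoA synthetase Acss2 at least 10.5-fold. Gpr183, a receptor for oxysterols made from the product of Ch25h, was at least 9.01-fold lower, opposite to Ch25h.

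Promoters were read from RefSeq sequence (GRCm38.p6) as the 250 bases before the first listed start of each gene. Sequence was found for 8616 of the 10673 tested genes with a symbol. The interferon response motif, searched here on both strands as GAAA, 2 bases of any kind and GAAA again, was present in 11.2% of 267 genes at least 4-fold higher, in 3.23% of 217 genes at least 4-fold lower and in 2.89% of all promoters. The AP-1 motif TGACTCA was present in 10.1%, 2.3% and 3.34% of the same sets. The NF-kB motif, read as GGGA, any base and TTTCC, was rarer, at 1.87%, 0.922% and 0.383%, which is 5, 2 and 33 promoters. TATAAA was present in 16.1%, 9.68% and 6.64%. In the other direction, the cyclic AMP motif TGACGTCA was held by 0.749% and 1.38% of the same 4-fold sets (2 and 3 promoters) and 2.81% of all promoters. The Sp1 motif GGGGCGGGG was held by 11.6%, 16.6% and 19.3%. The PU.1 motif GAGGAAGT was at 5.24% and 5.99% in the 4-fold higher and lower sets against 2.72% of all. Among all 2660 higher genes with a promoter, differences from all promoters were smaller. There the interferon motif was at 4.21%, AP-1 at 4.14%, NF-kB at 0.489% and TATAAA at 7.67%. The cyclic AMP motif was at 2.97%, Sp1 at 18.7% and PU.1 at 2.71%. The interferon motif can share letters with other motifs searched, such as the STAT motif (TTC, 3 bases of any kind, GAA), and a window may count for several motifs. These shares are descriptions of letters in a fixed window, and no factor's binding was measured.

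**Figure D3:**
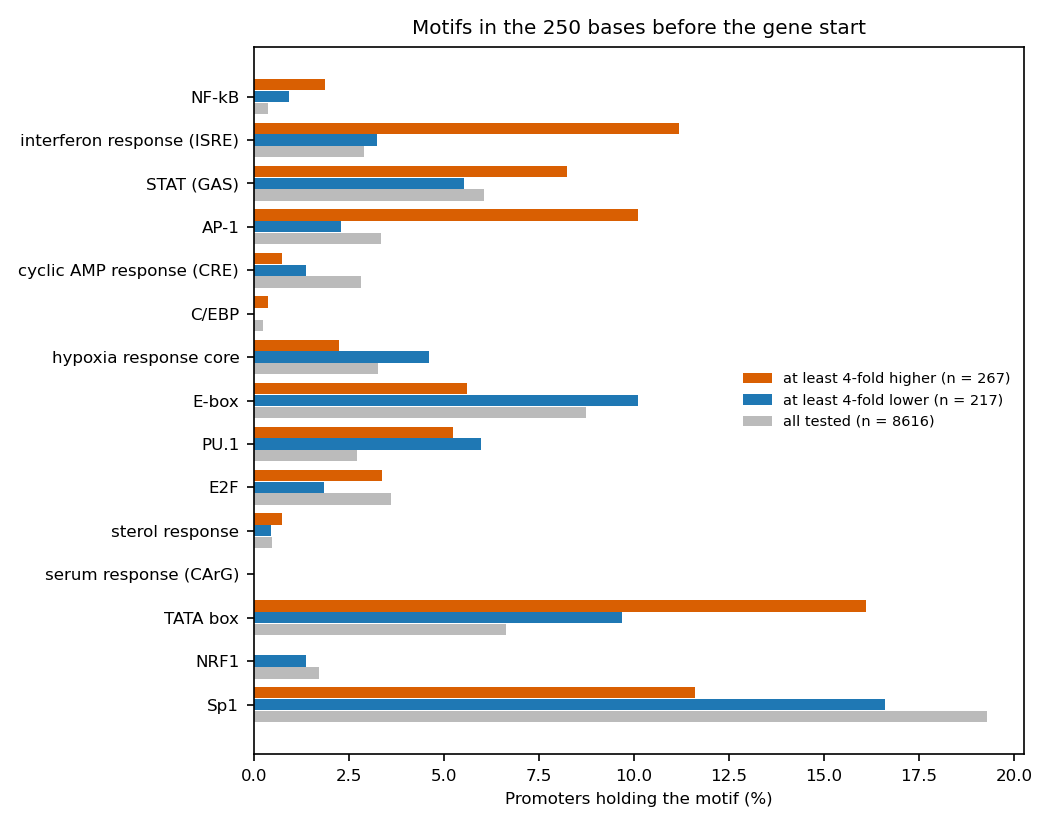
Share of promoters (x axis, percent of the 250-base windows) that hold each of 15 motifs (y axis), for genes at least 4-fold higher (orange), at least 4-fold lower (blue) and all tested genes with a promoter (grey). The interferon, AP-1, NF-kB and TATA motifs are more frequent among genes at least 4-fold higher than among all, and the cyclic AMP, NRF1 and Sp1 motifs less so. The NF-kB, cyclic AMP, NRF1, C/EBP, sterol response and serum response bars of the 4-fold sets rest on 5 promoters or fewer. So do the AP-1 and E2F bars of the set at least 4-fold lower.

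The 5 windows shown here hold the interferon or the AP-1 motif in genes described above. These 2 motifs were among those more frequent in genes at least 4-fold higher than in all promoters, as were NF-kB and TATAAA. Each window is given 5′ to 3′ on the gene's own strand (RefSeq, GRCm38.p6), with the motif in capitals. Apol9a, Socs1 and Gstt1 hold the interferon motif, and Upp1 and Il1rn the AP-1 motif. They lie at chr15:77411081-77411330 on the minus strand (Apol9a), chr16:10785537-10785786 on the minus strand (Socs1), chr10:75797732-75797981 on the minus strand (Gstt1), chr11:9117758-9118007 on the plus strand (Upp1) and chr2:24336610-24336859 on the plus strand (Il1rn).
Apol9a: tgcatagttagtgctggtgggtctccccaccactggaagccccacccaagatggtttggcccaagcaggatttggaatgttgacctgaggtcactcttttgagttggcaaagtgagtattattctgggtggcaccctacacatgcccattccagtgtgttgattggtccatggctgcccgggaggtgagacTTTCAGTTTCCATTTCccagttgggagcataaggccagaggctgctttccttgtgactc
Socs1: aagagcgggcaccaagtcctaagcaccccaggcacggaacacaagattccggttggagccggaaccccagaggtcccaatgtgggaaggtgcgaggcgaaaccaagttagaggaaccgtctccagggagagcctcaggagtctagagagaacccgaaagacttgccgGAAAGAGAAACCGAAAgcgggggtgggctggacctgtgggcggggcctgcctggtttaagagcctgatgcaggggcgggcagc
Gstt1: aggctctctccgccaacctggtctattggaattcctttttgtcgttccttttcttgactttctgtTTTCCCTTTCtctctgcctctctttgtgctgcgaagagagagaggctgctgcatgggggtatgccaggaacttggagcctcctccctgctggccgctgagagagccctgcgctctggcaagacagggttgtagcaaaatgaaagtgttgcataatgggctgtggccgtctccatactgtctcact
Upp1: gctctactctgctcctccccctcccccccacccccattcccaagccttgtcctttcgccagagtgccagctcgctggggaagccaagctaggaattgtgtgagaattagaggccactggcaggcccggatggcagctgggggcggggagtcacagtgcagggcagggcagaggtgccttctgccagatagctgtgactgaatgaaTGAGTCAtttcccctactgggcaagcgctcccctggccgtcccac
Il1rn: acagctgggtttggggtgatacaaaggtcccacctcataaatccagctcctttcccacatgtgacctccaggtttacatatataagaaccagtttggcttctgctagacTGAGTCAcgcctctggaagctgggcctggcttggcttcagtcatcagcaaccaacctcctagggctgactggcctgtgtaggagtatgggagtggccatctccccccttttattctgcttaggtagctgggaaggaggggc

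Of all pairs of neighbouring tested genes with a symbol, 10.6% were both higher and 5.93% both lower, where 30.6% of these genes were higher and 22.2% lower singly, so pairs are described here without being read as clustering. In the order of tested named genes, 12 consecutive genes on chromosome 16 rose, from Kpna1 to Cd86, with 8 stefin and cystatin genes inside this run (median difference 2.37). On chromosome 10, Ddt, Gstt3, Gstt1, Gstt4, Gstt2 and Mif rose in a row (median 1.76). On chromosome 17 the formyl peptide receptor genes Fpr1 and Fpr2 and the related Fpr-rs6 rose beside one another, Fpr1 by 3.99 (SE 0.22). Bst1 and Cd38, related NAD-consuming ectoenzymes, were neighbours within a run of 9 on chromosome 5. Runs that fell were shorter, with none over 6 genes. Within such families, probes can bind near-identical copies, so the value of a single member is uncertain.

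**Figure D4:**
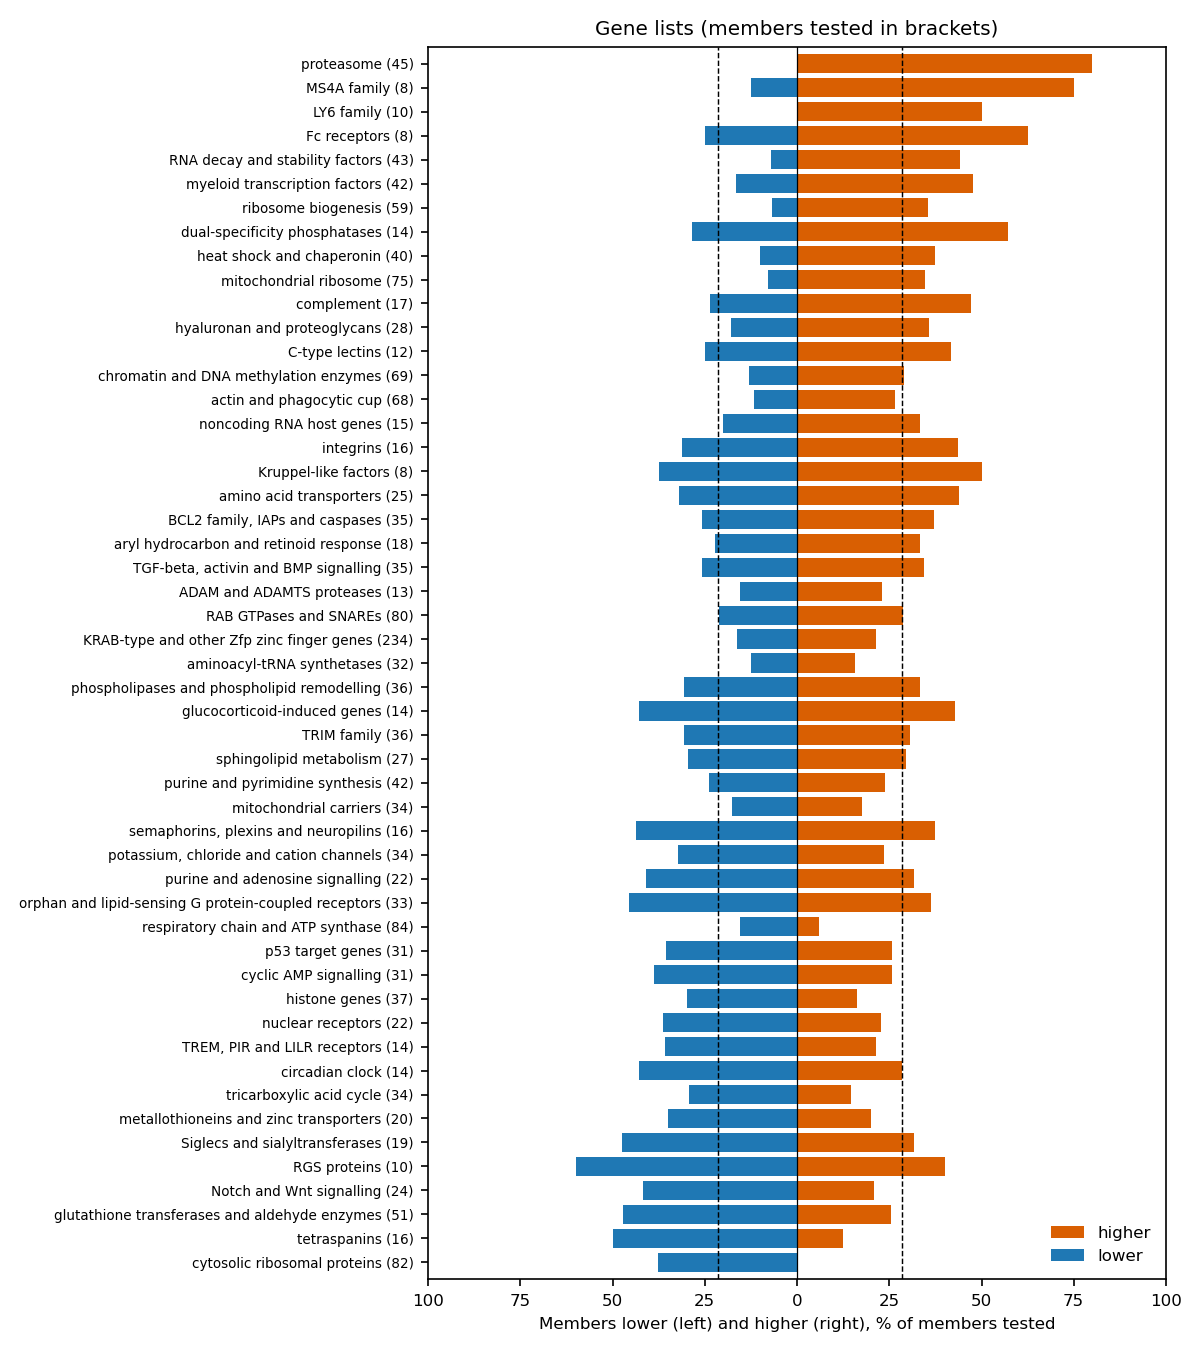
Share of tested members higher (orange, to the right) and lower (blue, to the left) with tumour material in each of 51 fixed gene lists (y axis), in percent of the members tested (x axis), with dashed lines at the shares over all genes (28.5% higher and 21.4% lower). The proteasome has the longest bar to the right with no bar to the left, and the cytosolic ribosomal proteins only a bar to the left.

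Most proteasome genes rose, and the cytosolic ribosomal protein genes that passed the test fell. List counts in this and the following paragraphs stand beside 28.5% higher and 21.4% lower over all genes. Counts near these shares do not set a list apart. The proteasome degrades ubiquitinated proteins and, in its immune form, generates peptides for presentation. Of 45 proteasome genes tested, 36 were higher and 0 lower, with a median difference of 0.55. The activator subunit Psme3 had the largest difference: it stood at 3.47, 3.67 and 3.22 in controls and 5.82, 5.64 and 5.34 with tumour material, without overlap, and rose by 2.14 (SE 0.23, adjusted p = 0.00025). Core and lid subunits followed with smaller rises, among them Psma6 by 1.06 (SE 0.17), Psmd11 by 1.03 (SE 0.08) and Psmd3 by 1.03 (SE 0.09). The immunoproteasome subunits Psmb8 and Psmb9 rose by 0.93 (SE 0.11) and 0.76 (SE 0.09), and Psmb10 differed by 0.05 (adjusted p = 0.7). With quantile normalization the counts were 28 and 1.

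Cytosolic ribosomal protein genes, by contrast, gave 0 higher and 31 lower of 82, with a median of −0.21. The falls were small, for example −0.65 (SE 0.11) in Rps7, −0.70 (SE 0.08, another probe −0.42) in Rpl10a and −1.10 (SE 0.18) in Rps21. Their number depended on the fit, with 59 lower after quantile normalization and 19 when the transgenic arrays shared the fit. None was higher in either. Of the factors that build ribosomes in the nucleolus, 21 of 59 were higher and 4 lower (median 0.22). Rrp9, a component of the small-subunit processome, rose by 1.01 (SE 0.08), the RNA polymerase I subunit Polr1a by 0.83 (SE 0.09) and Nop56 by 0.56 (SE 0.09), while Imp3 fell by 0.88 (SE 0.15).

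Mitochondrial ribosome genes were higher in 26 and lower in 6 of 75 (median 0.14). After quantile normalization the counts were 21 and 9 and the median turned to −0.03. Among the higher genes were Mrpl45 (1.12, SE 0.08) and Mrps22 (0.68, SE 0.15). The respiratory chain and ATP synthase, whose proteins make most cellular ATP, were higher in 5 and lower in 13 of 84 (median −0.14), both below the shares over all genes. After quantile normalization 37 were lower. Ndufs8, a subunit of complex I, fell by 0.87 (SE 0.10), the muscle-type Cox6a2 by 1.73 (SE 0.11) and Uqcrh by 0.40 (SE 0.08). In the tricarboxylic acid cycle 5 of 34 were higher and 10 lower (median −0.18). Acod1, which diverts aconitate to itaconate, rose by 2.20 (SE 0.10) and the malic enzyme Me1 by 0.92 (SE 0.15), while Idh1, Idh2 and the fumarase Fh1 fell by 1.24, 0.64 and 0.80 (SE 0.28, 0.08 and 0.15). Mitochondrial carriers split evenly, 6 higher and 6 lower of 34. The pyrimidine carrier Slc25a33 rose by 1.67 (SE 0.12), the iron carrier Slc25a37 (mitoferrin) rose by 1.34 (SE 0.08) and the aspartate-glutamate carrier Slc25a13 fell by 1.90 (SE 0.11).

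**Figure D5:**
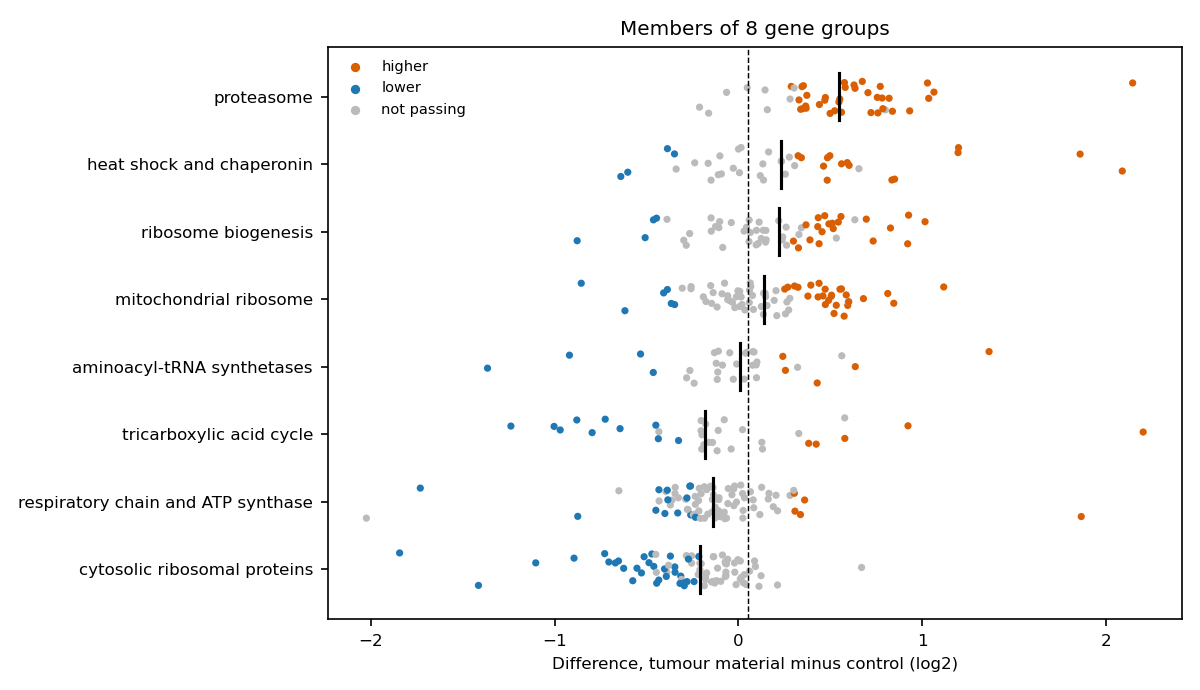
Difference with tumour material (x axis, log2) of every tested member of 8 gene groups (y axis), 1 point per gene, orange where higher, blue where lower and grey where the test was not passed, with a black bar at the group's median and a dashed line at the median of all genes. Proteasome points lie mostly to the right of the line and ribosomal protein points mostly to its left.

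Chaperones were higher in 15 and lower in 4 of 40 (median 0.23). Inducible Hspa1a and the related Hspa1l were not well above background in controls and were at least 2.59-fold and 3.64-fold higher, and the cytosolic chaperones Hsp90aa1 and Hsph1 rose by 0.85 (SE 0.16) and 0.83 (SE 0.07). Factors of RNA decay were higher in 19 and lower in 3 of 43 (median 0.25). Zc3h12c, of the regnase family, rose by 1.19 (SE 0.19), and the related AU-rich element binders Zfp36l1 and Zfp36l2 went apart, differing by 1.10 (SE 0.08) and −0.69 (SE 0.11). Aminoacyl-tRNA synthetases, which charge tRNAs, were higher in 5 and lower in 4 of 32 (median 0.01, and −0.09 after quantile normalization). Kars rose by 0.64 (SE 0.08) and Vars fell by 0.53 (SE 0.12).

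Chromatin enzymes were higher in 20 and lower in 9 of 69. The histone demethylase Kdm6b rose by 1.71 (SE 0.11) and the deacetylase Hdac9 by 1.12 (SE 0.27). The catalytic DNA methyltransferases Dnmt3a, Dnmt3b and Dnmt1 fell by 1.79 (SE 0.13), 1.24 (SE 0.16) and 0.82 (SE 0.15). Dnmt3l, a cofactor without that activity, stood at 0.83, 0.01 and 0.89 in controls and 3.98, 4.06 and 4.09 with tumour material and rose by 3.45 (SE 0.22, adjusted p = 1.9e-05). Histone genes were higher in 6 and lower in 11 of 37, with the variants H2az1 and H2az2 lower by 0.65 and 0.64 (SE 0.08 and 0.09). Labelling from poly(A) tails reads replication-dependent histone transcripts poorly.

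Some genes named below were well above background on only part of the 4 arrays of the dimmer group, which makes their differences less sure. In control medium this was 1 array for Cyp26b1 and Kcna3, 2 for Gpat3, and 3 for Cd55, Col3a1, Gpr18, Kcnab1, Mir22hg and Nr1d1. With tumour material it was 1 array for Clec2i and Kcnj2 (and for Lpin1 above), 2 for Entpd1, Rab27a, Sik1 and Trim2 (and for Idh1 above), and 3 for Ltf, Pfn2, Rapgef3 and Stab2.

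Among Fc receptors, which bind antibody, 5 of 8 were higher and 2 lower. The IgG receptors Fcgr1, Fcgr2b, Fcgr3 and Fcgr4 rose by 1.40, 1.29, 0.83 and 1.40 (SE 0.16, 0.10, 0.10 and 0.10), and the antibody-salvage receptor Fcgrt fell by 1.25 (SE 0.17). The sialic acid receptors Siglec1, Siglece and Cd33 rose by 3.80 (SE 0.10), 3.55 (SE 0.10) and 1.59 (SE 0.15), a second probe of Siglec1 giving 2.63. Of the sialyltransferases, which make the ligands of such receptors, St6galnac6 fell, besides St6gal1, by 1.60 (SE 0.09), St3gal3 by 1.51 (SE 0.09) and St3gal2 by 1.30 (SE 0.19), while St3gal1, St3gal5 and St6gal2 rose, St3gal5 by 1.15 (SE 0.10). In the combined list 6 were higher and 9 lower of 19.

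LY6-type surface proteins, several of them marks of monocytes, were higher in 5 and lower in 0 of 10 (median 1.21). Ly6a rose by 2.03 (SE 0.15), Ly6c1 by 2.02 (SE 0.12), Ly6i by 3.31 (SE 0.18) and the urokinase receptor Plaur by 2.19 (SE 0.13). MS4A membrane proteins were higher in 6 and lower in 1 of 8. Ms4a8a was not well above background in controls and was at least 5.21-fold higher, and Ms4a3, a gene of granulocyte-monocyte progenitors, was at least 2.10-fold lower. Ms4a4c rose by 1.10 (SE 0.24), with another probe at 3.81. Members of the LY6 and MS4A families share sequence, and their probes may bind each other's transcripts.

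Complement genes were higher in 8 and lower in 4 of 17 (median 0.87). Alternative-pathway factors Cfb and Cfp (properdin) rose by 2.52 (SE 0.12) and 1.16 (SE 0.09), C3 by 0.91 (SE 0.10) and its receptor C3ar1 by 0.87 (SE 0.08). The membrane-bound inhibitor Cd55 rose by 2.80 (SE 0.35). C-type lectins were higher in 5 and lower in 3 of 12, by small amounts apart from Clec2i, which fell by 1.69 (SE 0.25). In the TREM, PIR, LILR and SIRP list, 3 were higher and 5 lower of 14, with the lipid receptor Trem2 down by 0.94 (SE 0.09) and Treml1 by 1.60 (SE 0.09).

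Of 16 integrin genes 7 were higher and 5 lower. The collagen receptor subunit Itga1 rose by 2.70 (SE 0.21) and the fibronectin receptor subunit Itga5 by 1.42 (SE 0.12), while Itga4 and Itga6, subunits of fibronectin and laminin receptors, fell by 2.23 (SE 0.19) and 2.07 (SE 0.11), and Itgb3 and Itgb5 by 1.48 (SE 0.08) and 1.41 (SE 0.10). Tetraspanins were higher in 2 and lower in 8 of 16 (median −0.39), with Cd81 down by 1.19 (SE 0.21) and Tspan5 by 1.66 (SE 0.13), and Tspan3 up by 1.31 (SE 0.24). Plexins, the receptors of semaphorins, fell in 6 genes: Plxnc1 by 3.22 (SE 0.16), Plxna2 by 2.27 (SE 0.12) and Plxnd1 by 1.32 (SE 0.11) at the head. The semaphorins Sema6d and Sema4b rose by 2.67 (SE 0.20) and 1.12 (SE 0.11), and Sema4d fell by 1.08 (SE 0.13). The combined list had 6 higher and 7 lower of 16.

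G protein-coupled receptors carry signals of lipids, metabolites, nucleotides and chemokines. In the list of numbered and lipid-sensing receptors 12 were higher and 15 lower of 33. Gpr18 stood at −1.87, −2.33 and −2.20 in controls and 1.69, 1.95 and 2.03 with tumour material and rose by 4.04 (SE 0.24). Gpr84, a receptor for medium-chain fatty acids, rose by 3.46 (SE 0.14) and the hydroxy acid receptor Hcar2 by 2.10 (SE 0.17). Besides Gpr162 and Gpr183, Gpr155 and Gpr82 were at least 4.28-fold and 1.72-fold lower. Gpr132 and Gpr65, of the proton-sensing receptor family, fell by 1.87 (SE 0.10) and 1.15 (SE 0.08).

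The 3 tested receptors for adenosine rose. Adora2b went from 0.43, −0.04 and 0.29 in control replicates to 4.19, 4.12 and 4.27 with tumour material, without overlap (difference 3.96, SE 0.14, adjusted p = 1.5e-06), Adora2a rose by 2.37 (SE 0.27) and Adora3 by 1.46 (SE 0.17). The ATP-release channel Panx1 fell by 1.77 (SE 0.09), the ectonucleotidase Entpd1 (CD39) by 1.48 (SE 0.20) and adenosine deaminase Ada by 0.72 (SE 0.12). Of the nucleoside transporters, Slc28a2 rose by 2.81 (SE 0.17) and Slc29a1 fell by 1.75 (SE 0.09). The ADP receptor P2ry1 fell by 1.80 (SE 0.11), and over the whole purine list 7 were higher and 9 lower of 22.

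RGS proteins, which switch off G protein signals, had 4 higher and 6 lower of 10 tested, so every tested member passed the test. Rgs2 stood at 5.68, 5.79 and 5.64 in controls and 2.28, 2.21 and 2.65 with tumour material (difference −3.31, SE 0.22), Rgs18 fell by 2.59 (SE 0.19) and Rgs10 by 1.69 (SE 0.09), whereas Rgs11 rose by 2.23 (SE 0.16). In cyclic AMP signalling 8 were higher and 12 lower of 31. The phosphodiesterase Pde4b rose by 2.19 (SE 0.12) while Pde3b and Pde2a fell by 1.80 (SE 0.14) and 1.58 (SE 0.11). The cyclic AMP-binding exchange factor Rapgef3 fell by 3.03 (SE 0.18), and Sik1 and Nr4a1, genes commonly induced by cyclic AMP, by 1.95 (SE 0.22) and 1.80 (SE 0.12).

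Dual-specificity phosphatases, which inactivate MAP kinases, were higher in 8 and lower in 4 of 14. Dusp5 was at least 2.72-fold higher, and Dusp16, Dusp6 and Dusp1 rose by 2.22 (SE 0.09), 1.94 (SE 0.11) and 1.17 (SE 0.21). Ion channels were higher in 8 and lower in 11 of 34. Voltage-gated Kcna3 and its partner Kcnab1 rose by 2.49 (SE 0.14) and 2.58 (SE 0.28), the inward rectifiers Kcnj2 and Kcnj10 fell by 2.36 (SE 0.41) and 2.00 (SE 0.23), and the store-operated calcium channel subunits Orai1 and Orai2 rose by 1.2 (SE 0.10) and 1.02 (SE 0.13).

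Transcription factors of myeloid cells were higher in 20 and lower in 7 of 42 (median 0.51). Spic, a factor of iron-recycling macrophages, rose from 1.56, 1.38 and 1.58 to 5.05, 5.13 and 5.09 (difference 3.58, SE 0.11). Maff rose by 2.72 (SE 0.18), Ets2 by 2.38 (SE 0.10), Id1 by 2.07 (SE 0.33) and the MYC antagonist Mxd1 by 2.74 (SE 0.16), with another Mxd1 probe at 1.53. Of the lower members, Cebpa fell by 1.40 (SE 0.09), the granulocyte factor Cebpe by 1.80 (SE 0.23), and the progenitor factor Myb was at least 2.47-fold lower. Kruppel-like factors split into 4 higher and 3 lower of 8, with Klf4 differing by 1.05 (SE 0.08) and Klf2 by −1.48 (SE 0.26).

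Nuclear receptors were higher in 5 and lower in 8 of 22. Besides Pparg, the estrogen receptor Esr1 was at least 2.35-fold lower, while the retinoic acid receptor Rara rose by 1.93 (SE 0.18; another probe 1.0) and Ppard by 0.95 (SE 0.11). Among genes of the aryl hydrocarbon and retinoid responses 6 were higher and 4 lower of 18. The aryl hydrocarbon receptor Ahr stood at 1.28, 0.88 and 1.33 in controls and 4.21, 4.21 and 4.18 with tumour material and rose by 3.03 (SE 0.34, adjusted p = 0.0003). Its known target Tiparp rose by 2.17 (SE 0.09) and the retinoic acid hydroxylase Cyp26b1 by 2.77 (SE 0.30).

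Clock genes were higher in 4 and lower in 6 of 14. Dbp and Tef, output factors of the clock, fell by 1.34 (SE 0.11) and 1.03 (SE 0.11) and the repressor Bhlhe41 by 1.80 (SE 0.15). Nr1d1 rose by 1.28 (SE 0.29) and Per1 by 0.57 (SE 0.11). The core activators Arntl and Clock differed by −0.31 (adjusted p = 0.091) and −0.18 (adjusted p = 0.5). Without treated replicate 2, Arntl differed by −0.44, past the threshold. Genes commonly induced by glucocorticoids gave 6 higher and 6 lower of 14. Tsc22d3 (GILZ) fell by 1.10 (SE 0.11) and Zbtb16 was at least 7.49-fold lower, while Errfi1 and Dusp1, which other signals also induce, rose, Errfi1 by 2.31 (SE 0.14), and Fkbp5 differed by −0.03 (adjusted p = 0.86).

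In TGF-beta, activin and BMP signalling 12 genes were higher and 9 lower of 35, or 34.3% and 25.7%, against 28.5% and 21.4% over all genes. Alongside Inhba, the activin antagonist Fst (follistatin) was at least 4.67-fold higher. The TGF-beta receptors Tgfbr1 and Tgfbr2 fell by 1.09 (SE 0.11) and 1.32 (SE 0.12), the latent TGF-beta binding protein Ltbp3 by 2.02 (SE 0.16), and Bmp2 was at least 2.97-fold lower. The receptors Acvrl1 and Acvr1 and the co-receptor Eng rose by 0.92, 0.78 and 0.82 (SE 0.08, 0.08 and 0.09). Notch and Wnt genes were higher in 5 and lower in 10 of 24. The Notch ligand Jag1 rose by 2.93 (SE 0.14), the effector Rbpj by 1.25 (SE 0.11) and Dtx2 by 3.13 (SE 0.27), while the Notch target Hey1 was at least 5.35-fold lower. The Wnt receptor genes Fzd1 and Lrp6 fell by 1.21 (SE 0.15) and 1.14 (SE 0.08), another Lrp6 probe giving −0.64.

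Amino acid transporters were higher in 11 and lower in 8 of 25. The arginine transporter Slc7a2 was at least 7.17-fold higher, the neutral amino acid transporters Slc1a4 and Slc7a8 rose by 2.82 (SE 0.17) and 2.79 (SE 0.08), and the glutamine transporter Slc1a5 and the glycine transporter Slc6a9 fell by 1.81 (SE 0.08) and 1.83 (SE 0.16). For zinc, the importer Slc39a14 rose by 1.11 (SE 0.14), Slc39a10 fell by 1.52 (SE 0.15) and the exporter Slc30a1 was at least 4.31-fold lower. The metallothionein Mt2 differed by 0.05 (adjusted p = 0.86). The zinc list had 4 higher and 7 lower of 20.

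Nucleotide synthesis genes were higher in 10 and lower in 10 of 42. Beside Upp1, thymidylate synthase Tyms rose by 3.24 (SE 0.16) and the interferon-inducible kinase Cmpk2 by 2.06 (SE 0.07). The ribonucleotide reductase subunit Rrm2 fell by 1.40 (SE 0.15) and Dut, which removes dUTP, was at least 2.88-fold lower. In sphingolipid metabolism 8 were higher and 8 lower of 27: sphingosine kinase Sphk1 rose by 2.55 (SE 0.12) and the sphingosine phosphate phosphatase Sgpp1 fell by 1.47 (SE 0.09). Phospholipases and acyltransferases were higher in 12 and lower in 11 of 36. The secreted phospholipase Pla2g5 was at least 8.07-fold higher, the arachidonate-releasing Pla2g4a rose by 1.48 (SE 0.07) and the glycerol phosphate acyltransferase Gpat3 by 3.1 (SE 0.11). The lysosomal phospholipase Pla2g15 fell by 1.78 (SE 0.11) and Pld4, of the phospholipase D family by name, by 2.05 (SE 0.10).

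In the BCL2, IAP and caspase list 13 were higher and 9 lower of 35. The caspase-8 inhibitor Cflar rose by 2.35 (SE 0.09; another probe 1.48), the inhibitor of apoptosis Birc3 by 1.56 (SE 0.24) and the BCL2 homologue Bcl2a1d by 0.75 (SE 0.07), and besides Bmf the BH3-only gene Bbc3 fell by 0.82 (SE 0.10). Caspase-8 itself rose by 1.0 (SE 0.20). Genes commonly placed downstream of p53 were higher in 8 and lower in 11 of 31. The cell cycle inhibitor Cdkn1a, the death receptor Fas and Mdm2 rose by 2.05 (SE 0.08), 1.94 (SE 0.15) and 0.95 (SE 0.08), while Sesn1, Trp53inp1 and Zmat3 fell by 2.65 (SE 0.33), 1.86 (SE 0.24) and 1.0 (SE 0.11).

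Actin regulators were higher in 18 and lower in 8 of 68, shares of 26.5% and 11.8% that lie below those over all genes (28.5% and 21.4%), with the formin Fmnl2 up by 1.99 (SE 0.11) and the profilin Pfn2 down by 2.05 (SE 0.35). RAB GTPases and SNAREs were higher in 23 and lower in 17 of 80, or 28.8% and 21.2%, the same as over all genes to within 1 point. Among them were Rab20 differing by 1.68 (SE 0.16), the SNARE Stx11 by 2.32 (SE 0.14) and Rab27a by −1.08 (SE 0.21).

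Hyaluronan and proteoglycan genes were higher in 10 and lower in 5 of 28. The granule proteoglycan Srgn rose by 1.93 (SE 0.11), the matrix proteoglycan Vcan by 1.42 (SE 0.31) and Cemip2 by 2.29 (SE 0.08), and the hyaluronan receptor Stab2 fell by 2.82 (SE 0.12). ADAM proteases were higher in 3 and lower in 2 of 13, with Adam19 and Adam8 up by 1.09 (SE 0.09) and 0.60 (SE 0.11).

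TRIM ubiquitin ligases were higher in 11 and lower in 11 of 36, the interferon-inducible Pml and Trim30a rising by 1.33 (SE 0.08) and 0.70 (SE 0.14) and Trim2 falling by 1.41 (SE 0.18). Numbered Zfp zinc finger genes, the largest list, were higher in 50 and lower in 38 of 234, below the share over all genes in each direction, with a median of −0.02. Hosts of small RNAs and other noncoding transcripts were higher in 5 and lower in 3 of 15, or 33.3% and 20%, against 28.5% and 21.4% over all genes. Mir22hg rose by 1.51 (SE 0.36), Mir17hg by 0.69 (SE 0.10) and Malat1 by 0.68 (SE 0.11). These probes measure the host transcripts, and mature miRNAs were not measured.

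Markers were followed to check what the cultures contained. Of 11 tested macrophage markers 6 were higher and 1 lower. The M-CSF receptor gene Csf1r stood at 8.48, 8.53 and 8.56 in controls and 8.54, 8.61 and 8.50 with tumour material (difference 0.02, SE 0.07, adjusted p = 0.85), and Cd68 differed by −0.31 (adjusted p = 0.31). Csf1r passed the threshold downwards, at −0.27, after quantile normalization, and at −0.30 as the mean over its probes. Adgre1 (F4/80) rose by 1.53 (SE 0.11; another probe 0.37) and Spi1, the factor PU.1, by 0.70 (SE 0.08). Itgam rose by 2.13 (SE 0.14) on its brightest probe, but its probes ran from −0.46 to 2.14. The single probe of Lyz2, whose promoter drives the Cre, was well above background on 4 of the 8 arrays and was not tested. None of 20 epithelial and mammary tumour markers passed the detection filter. Of these, 18 were well above background on no array of either group, Epcam, Cdh1, Krt8 and Krt18 included. Cldn7 was so on 3 of 4 treated arrays and no control array, and Esrp1 on 1 array of each group. The part of RNA from the lysate in the results was not tested.

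Markers of other cell types moved too. Fibroblast markers were higher in 2 and lower in 0 of 9: Lum was at least 36.0-fold higher, Dcn rose by 3.53 (SE 1.24), and Col1a1 and Col3a1 differed by 0.05 (adjusted p = 0.97) and −0.02 (adjusted p = 0.99). The call for Dcn was lost in 9 of 16 alternative fits, those without any single treated replicate among them. Without control replicate 2, Col1a1 differed by −0.98 and Col3a1 by −1.44, both past the threshold. In controls 1, 2 and 3 the level of Col1a1 was 0.94, −2.43 and 0.80 and that of Col3a1 was 1.22, −3.20 and 1.48, lowest in replicate 2 for both. With tumour material Lum had levels of 2.13, 2.36 and 2.39 and Dcn of 4.61, 4.91 and 4.46, against 2.63, −2.42 and 2.76 for Dcn in controls, lowest again in replicate 2. The part of stromal cells in these values was not tested. Neutrophil and precursor markers were higher in 1 and lower in 7 of 9, with Ltf differing by −6.83 (SE 0.32), Camp by −2.97 (SE 0.24) and S100a9 by −1.65 (SE 0.24), while Mmp8 rose by 2.17 (SE 0.20) and Elane differed by 0.02 (adjusted p = 0.92). The falls of Myb, Cebpe and Ms4a3 given above came with these, and the part of granulocytic cells in them was not tested. Few markers of the remaining cell types could be tested: 4 for endothelium (1 higher, 1 lower), 4 for T and NK cells (1 higher, 2 lower) and 3 for dendritic cells (1 higher, 1 lower). For the erythroid and platelet list 3 were tested (1 higher, 1 lower), for mast cells and basophils 2, of which 0 passed upwards and 0 downwards, and for B cells only 1, which was lower.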

How the data were processed

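RNA of wild-type bone marrow-derived macrophages was hybridised to one-colour Agilent arrays, 4 per group. The deposited scanner files hold a background-corrected intensity per spot (gProcessedSignal) from Feature Extraction 10.7.3.1, per the submitters' processing notes, and the deposited series matrix holds log2 values from the authors, which correlated at 0.9998 or more with the scanner signals of the same array. How those values were centred is not stated.

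Control and flagged spots were left out, each array was scaled by its 75th percentile (83 to 116 units), and log2 was taken. Genes were tested when every array of either group detected a probe above background, with the brightest such probe standing for the gene, in limma 3.58.1 (R 4.3.3): group and slide as terms, replicate as a random block (within-replicate correlation 0.629), Benjamini-Hochberg adjustment over 15303 genes. Probes were named through RefSeq accessions (28311 of 55634), and unnamed probes were tested by accession. The fit was tested on simulated data. Array number limits the precision.

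The series matrix, normexp background correction (on gMedianSignal, for want of a gMeanSignal column), quantile normalization, other filters and left-out replicates were tried as alternatives. Same-numbered replicates were checked for pairing: their deviations correlated at −0.00527, −0.143 and 0.209, so the numbers were not taken as pairs. Genes are named by size of change, by size of lower bound, and as called members of gene lists, up to 6 a direction. Those named by size of change had to be above background on all arrays, with replicates that did not overlap between the groups. Genes whose call held in the alternatives were preferred. Unchanged members, markers and some further family members outside these rules were chosen after their values were seen. The lists and members were chosen with earlier results of these data known. Genes of the usual inflammatory, hypoxia and sterol sets were mostly passed over, and a few items are not reported here.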

Additional observations from a re-analysis of the deposited data

How the results depend on the processing

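The number of called genes stayed within 1.5 times of 7633 in every alternative that gave a test. It was lowest with no filter on dim probes (5698 of 36699 tested) and highest as the mean over probes (7795 of 15303). The share called with no filter was thus far below the 49.9% of the main fit. Probes well above background on all 8 arrays gave 6888 of 13851, and leaving out a replicate gave 6084 to 7506 of 15303. With the replicate number as a block it was 6945 (3951 higher, 2994 lower), and 2 of 6 samples correlated best with their own number, so the numbers were not taken as pairs. Quantile normalization gave 3664 higher and 3995 lower, and the deposited matrix 3665 and 3974, so higher genes made up 47.8% and 48% of the calls in place of 57.2%, and the median of all genes was −0.02 in place of 0.05. Without replicate 3 of a group, the remaining array of the second slide was left out too. Across alternatives, 12 calls turned direction, none for a gene named in the text. Of 4736 tests of a named gene in an alternative fit, 11 lost the call and 6 gained one, but genes with stable calls had been preferred for naming.

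Lists of small changes were less stable. Called-lower counts ranged from 12 to 59 for cytosolic ribosomal proteins (31 as reported), 7 to 37 for the respiratory chain (13), 5 to 17 for histones (11) and 6 to 14 for TRIM genes (11), in each case lowest with no filter on dim probes and highest after quantile normalization. Called-higher counts fell to 16 of 26 for the mitochondrial ribosome, 12 of 19 for RNA decay, 14 of 23 for RAB genes and 29 of 50 for Zfp genes with no filter, and to 11 of 18 for actin regulators with normexp. Called-lower RAB and Zfp genes fell to 10 of 17 and 24 of 38 with no filter. Genes near background have only bounds, and slide 2 alone holds 1 array a group and gave values with no test.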
